A study of Mus musculus with 4 samples.

Results

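The genes described here are 41 genes of the extracellular matrix and of its remodeling, measured by RNA sequencing of mouse liver. They were chosen by gene symbol with earlier results of these data known, and all 41 were found among the 24346 symbols listed for each library. They comprise 15 collagen genes, 7 matrix glycoproteins and elastic fibre genes, 4 proteoglycans, 7 proteases, 3 tissue inhibitors of metalloproteinases (TIMPs), 3 crosslinking enzymes and 2 cytoskeletal genes of mesenchymal cells. Genes were tested where FPKM averaged 0.5 or more across the 4 libraries, and 37 of the 41 reached this level. FPKM is the number of fragments mapped to a gene, relative to its exon length and to all mapped fragments of its library.

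Fibrillar collagens form the load-bearing fibres of scar tissue, and basement membrane collagens form the thin sheets beneath epithelia and around vessels. Glycoproteins and proteoglycans link and space these fibres, lysyl oxidases crosslink them, and metalloproteinases cut them under the restraint of the TIMPs. In a healthy liver most of this matrix comes from hepatic stellate cells and portal fibroblasts, and in chronic steatohepatitis activated stellate cells deposit fibrillar collagen as fibrosis.

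Livers came from male wild type C57BL/6 mice that were young adults when feeding began. All of them ate the NASH diet, a feed rich in fat, cholesterol and sucrose with added bile salt, for 3 weeks. The control group (n = 2) received this feed alone, and the 7KC group (n = 2) received the NASH+7-ketocholesterol diet, in which the same feed held 7-ketocholesterol (7KC), an oxidation product of cholesterol. Livers on standard chow were not analysed here, so the levels below say nothing of the NASH diet itself. The labels do not say whether a library came from 1 mouse or from pooled mice, so p-values measure the spread between these samples, which may be technical. Estimated depth was 17100000 mapped reads in control replicate 1 and 13600000 to 13800000 in the other libraries. As the markers of a liver sample, 11 of 11 hepatocyte genes were detected in every library, led by albumin (Alb) at 19000 to 41500 FPKM. Below, the controls are the control libraries, and values are always given for replicate 1 and then replicate 2 of a group.

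The comparison asked which matrix genes differed between livers on the NASH diet with and without 7KC. Vimentin, type I collagen, collagen XV, the membrane protease Mmp14, the cell-surface protease Adam8, the inhibitor Timp1 and fibrillin-1 were higher in both 7KC libraries than in both control libraries. So were Col4a1 and Col4a2 of type IV collagen and biglycan, by less. Transgelin, fibronectin, collagen XVIII, collagen XIV, decorin and Mmp19 were lower in both. No gene of the set passed an adjusted p under 0.05 in limma, in either direction, where 0.480% of all 12299 tested genes passed as higher and 0.0244% as lower. At an unadjusted p under 0.05 in limma, 8 of 37 genes (21.6%) were higher, against 12% of all tested genes, and 3 of 37 (8.11%) were lower, against 5.81%. Because bulk liver was sequenced, more cells of a type and more RNA per cell cannot be told apart, and the same holds for fewer cells and less RNA.

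Without any model, 11 of 37 genes (29.7%) had both 7KC libraries above both control libraries, against 25.1% of all tested genes. In the other direction, 6 of 37 (16.2%) had both 7KC libraries below, against 27.4%. Group means at least 2-fold apart without overlap were found for Col1a1, Col15a1, Adam8, Timp1 and Vim as higher (13.5%, against 6.50% of all tested genes) and for no gene as lower, against 0.512%. The median log2 change of the 37 genes was 0.33, where it was -0.03 over all tested genes, and 28 changes were positive and 9 negative. All log2 changes are 7KC minus control on the scale of log2(FPKM + 0.5), which understates the change of low genes.

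This balance moved with the scaling and with the library. Rescaling the libraries to 1 common sum moved the median of all genes to 0.16 and that of the set to 0.48, which left the set 0.32 above all genes, compared with 0.35 as deposited. On that scale 17 genes of the set (45.9%) were higher without overlap, against 46.5% of all tested genes, and 2 (5.41%) were lower, against 7.86%. At an unadjusted p under 0.05 in limma, 11 (29.7%) were higher there, against 19.1% of all tested genes, and 1 (2.70%) was lower, against 1.12%. Without 7KC replicate 2 the median of the set was 0.05, with 21 positive and 16 negative changes, against -0.02 over all tested genes. Without 7KC replicate 1 it was 0.64, against -0.03. Among genes that averaged 5 FPKM or more, the median was 0.07 for 21 genes of the set, against -0.08 for all genes at that level.

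**Figure D1:**
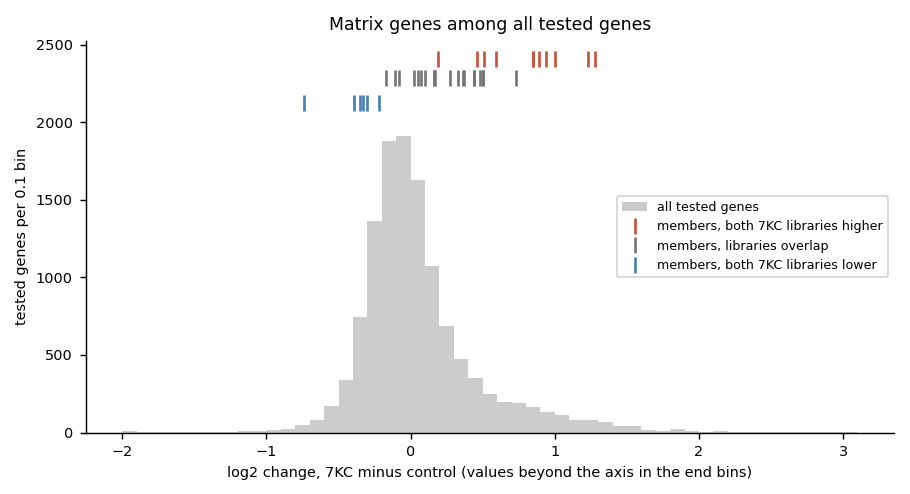
Histogram of the log2 change (7KC minus control, log2(FPKM + 0.5)) of the 12299 tested genes, with 1 tick above it for each of the 37 tested matrix genes (red, both 7KC libraries higher; gray, libraries overlap; blue, both 7KC libraries lower). The matrix genes spread from -0.74 to 1.28 around a median of 0.33, while the bulk of all genes lies close to -0.03.

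Among the fibrillar collagens, the type I collagen genes differed most between the groups. Col1a1 (chr11:94936224-94953042, plus strand), the alpha 1 chain of type I collagen, stood at 16.0 and 8.10 FPKM in the controls and at 23.5 and 34.2 FPKM in the 7KC libraries. The group means were 12.1 ± 5.59 and 28.9 ± 7.60 FPKM (SD, n = 2), a log2 change of 1.28 with an SE of 0.35 (limma adjusted p = 0.164). The libraries did not overlap, but the control libraries themselves stood 1.98-fold apart. Col1a2 (chr6:4504814-4541544, plus strand), its partner chain, was at 15.8 and 8.96 FPKM in the controls and at 17.9 and 30.2 FPKM in the 7KC group, a log2 change of 0.94 with an SE of 0.35 (limma adjusted p = 0.256). Control replicate 1 and 7KC replicate 1 were close to each other for this gene. The type I trimer holds the alpha 1 chain in excess over the alpha 2 chain, and the ratio of Col1a1 to Col1a2 was 1.02 and 0.904 in the controls and 1.31 and 1.13 in the 7KC libraries. Without control replicate 1, the log2 change of Col1a1 was 1.75 (limma adjusted p = 0.0336), and without control replicate 2 it was 0.81 (limma adjusted p = 0.312). It was 1.54 without 7KC replicate 1 and 1.01 without 7KC replicate 2, with limma adjusted p of 0.224 and 0.624. In each of these fits a group holds 1 library, which is assumed to vary as the other group does.

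Type III collagen, which forms thin reticular fibres together with type I, overlapped between the groups. Col3a1 (chr1:45311538-45349706, plus strand), the most abundant fibrillar collagen here, measured 28.6 and 17.5 FPKM in the controls and 27.1 and 51.4 FPKM in the 7KC libraries. Only 7KC replicate 2 stood above both control libraries, and the log2 change was 0.73 (SE 0.37, limma adjusted p = 0.367). The ratio of Col3a1 to Col1a1 was 1.79 and 2.16 in the controls and 1.15 and 1.5 in the 7KC libraries. Against Col1a2 it was 1.82 and 1.95 in the controls and 1.51 and 1.70 in the 7KC libraries, so neither ratio overlapped between the groups. Col1a1 and Col1a2 by themselves did not overlap either. The type V chains, which set fibril diameter, had log2 changes of 0.33 for Col5a1, 0.50 for Col5a2 and -0.11 for Col5a3, and the groups overlapped for each of them. The change of Col5a3 turned positive after rescaling to the same sum. Col5a2 lies 24614 bases from Col3a1 on the opposite strand, and the ratio of Col3a1 to Col5a2 was between 9.87 and 12.8 in the 4 libraries. Summed over the 6 fibrillar collagens, FPKM was 71.4 and 43.3 in the controls and 78.1 and 129 in the 7KC libraries.

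**Figure D2:**
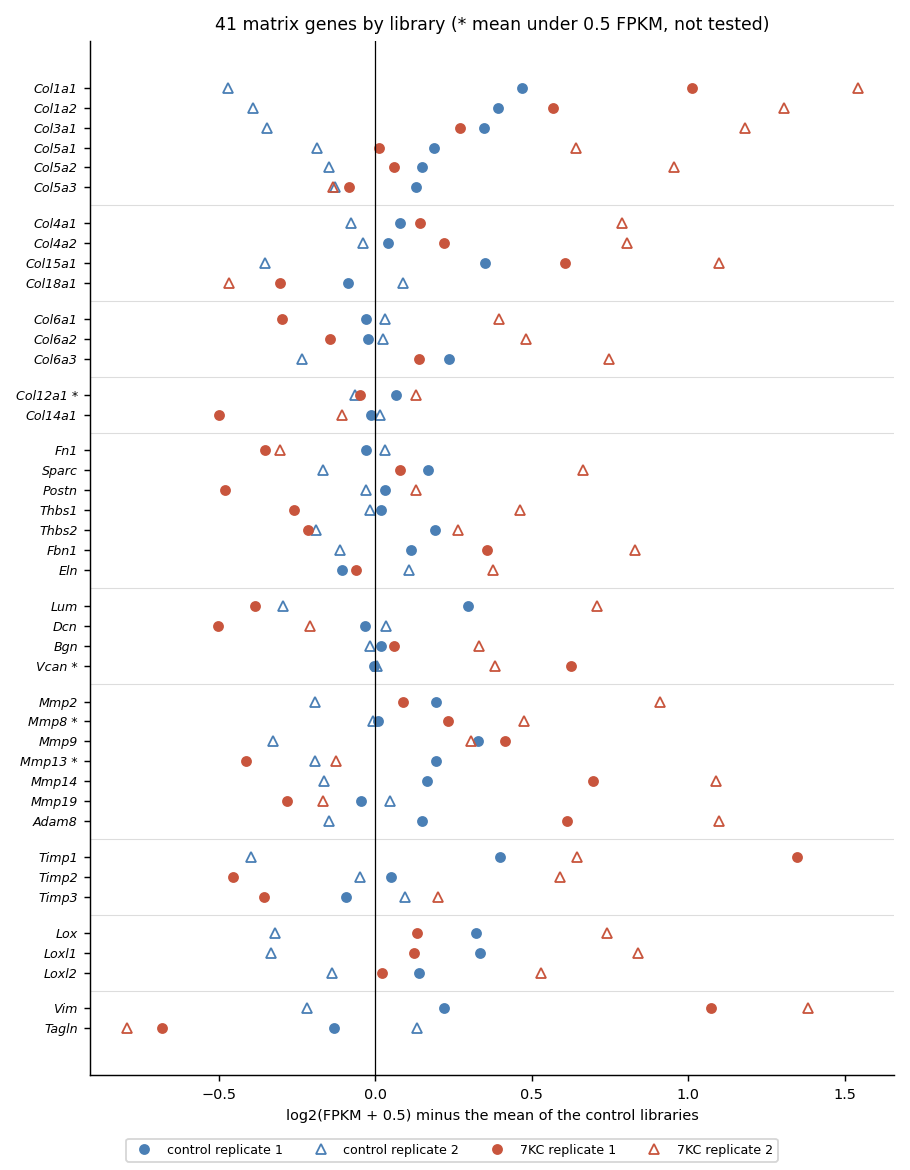
Level of each of the 41 matrix genes in each library as log2(FPKM + 0.5) minus the mean of the control libraries (blue, control; red, 7KC; circle, replicate 1; triangle, replicate 2), grouped by role from fibrillar collagens at the top to cytoskeletal genes at the bottom. The red triangle of 7KC replicate 2 is the rightmost point for 28 of the 37 tested genes, and the blue triangle of control replicate 2 is the leftmost for 21.

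The basement membrane collagens went in both directions. Col18a1 (chr10:77052178-77166548, minus strand), whose C-terminal fragment is endostatin, was the most abundant collagen here at 219 and 247 FPKM in the controls and 188 and 168 FPKM in the 7KC libraries. It was lower in both 7KC libraries, by 0.39 on the log2 scale (SE 0.14, limma adjusted p = 0.24), and rescaling to the same sum left a change of -0.18. Hepatocytes are a known source of collagen XVIII in the liver. Col15a1 (chr4:47208161-47313167, plus strand), its closest relative, was much rarer at 1.85 and 0.943 FPKM in the controls and 2.30 and 3.44 FPKM in the 7KC group. The groups did not overlap, and the log2 change was 0.85 (SE 0.30, limma adjusted p = 0.241).

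Col4a1 and Col4a2 encode the chains of the main type IV collagen trimer and are transcribed away from a shared start region. Col4a1 was at 12.9 and 11.5 FPKM in the controls and at 13.5 and 21.4 FPKM in the 7KC libraries, and Col4a2 at 7.39 and 6.96 against 8.43 and 12.9 FPKM. Both were higher without overlap, by little in 7KC replicate 1 and more in 7KC replicate 2, with log2 changes of 0.46 and 0.51. The ratio of Col4a1 to Col4a2 lay between 1.6 and 1.75 in the 4 libraries. The annotated genes share 22 bases at their 5′ ends, printed in capitals in the RefSeq window (build GRCm38.p6) of 250 bases before to 50 bases after the start of Col4a2, and the window is shown because both start sites fall inside it.
Col4a2 (chr8:11312555-11312854, plus strand): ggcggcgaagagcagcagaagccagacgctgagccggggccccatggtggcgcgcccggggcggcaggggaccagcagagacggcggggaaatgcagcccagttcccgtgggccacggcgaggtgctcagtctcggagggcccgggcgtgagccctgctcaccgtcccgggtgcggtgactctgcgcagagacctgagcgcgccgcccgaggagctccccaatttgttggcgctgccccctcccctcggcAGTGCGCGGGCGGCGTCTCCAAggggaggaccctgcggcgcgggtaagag

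Collagen VI, which forms beaded microfibrils around cells, overlapped between the groups for all 3 chains. Col6a1 (chr10:76708792-76726168, minus strand) was at 5.2 and 5.44 FPKM in the controls and at 4.23 and 7.15 FPKM in the 7KC libraries. The control libraries were nearly equal, and the 7KC libraries lay on either side of them, so the log2 change was 0.05 (SE 0.24, limma adjusted p = 0.935, 95% confidence interval -0.57 to 0.66). Under quantile normalization, which gives every library the same distribution, the change of Col6a1 was -0.04. Col6a2 and Col6a3 had log2 changes of 0.17 and 0.44, and the ratio of Col6a1 to Col6a2 was between 1.31 and 1.47 in the 4 libraries. Collagen XIV, which sits on the surface of fibrils, was lower in both 7KC libraries. Col14a1 (chr15:55307750-55520803, plus strand) measured 14.2 and 14.5 FPKM in the controls and 9.99 and 13.3 FPKM in the 7KC group, a log2 change of -0.30 with an SE of 0.16 (limma adjusted p = 0.385), and -0.10 after rescaling to the same sum. Its relative Col12a1 was between 0.150 and 0.244 FPKM and was not tested.

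Fibronectin dominated the glycoproteins. Fn1 (chr1:71585520-71653200, minus strand), which hepatocytes also secrete into plasma, was the most abundant gene of the set at 263 and 274 FPKM in the controls and 210 and 217 FPKM in the 7KC libraries. Replicates were within 1.04-fold of each other in both groups, and the log2 change was -0.33 (SE 0.12, limma adjusted p = 0.245). After rescaling to the same sum it was -0.12. The ratio of Fn1 to Col1a1 was 16.4 and 33.8 in the controls and 8.96 and 6.34 in the 7KC libraries. This ratio could not overlap, because Fn1 was lower and Col1a1 higher in both 7KC libraries.

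Fbn1 (chr2:125300594-125507993, minus strand) encodes fibrillin-1, the backbone of elastic microfibrils that also stores latent TGF-beta. It was at 0.998 and 0.778 FPKM in the controls and at 1.27 and 1.96 FPKM in the 7KC group, a log2 change of 0.59 with an SE of 0.23 (limma adjusted p = 0.273) without overlap. These levels corresponded to about 201, 126, 203 and 318 reads by the longest coding transcript. The other glycoproteins overlapped between the groups. Sparc, a collagen-binding protein, had a log2 change of 0.37, and Eln, which encodes elastin, had 0.16. Postn, which encodes periostin, had -0.17, and the thrombospondin genes Thbs1 and Thbs2 had 0.10 and 0.02. Signs were not stable for these low differences: Postn turned positive after rescaling to the same sum, and Thbs1 and Thbs2 turned negative under quantile normalization.

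The small leucine-rich proteoglycans, which bind collagen fibrils and limit their width, did not move as a group. Dcn (chr10:97479609-97518143, plus strand), which encodes decorin, was at 140 and 147 FPKM in the controls and at 101 and 124 FPKM in the 7KC libraries. It was lower without overlap, with a log2 change of -0.35 with an SE of 0.14 (limma adjusted p = 0.287), and -0.15 after rescaling to the same sum. Lum (chr10:97565128-97572703, plus strand), which encodes lumican and lies 46984 bases from Dcn, was at 10.1 and 6.52 FPKM in the controls and at 6.11 and 13.6 FPKM in the 7KC group. Its 7KC libraries held both the lowest and the highest value, 2.23-fold apart, and the log2 change of 0.16 (SE 0.40, limma adjusted p = 0.867) turned to -0.39 without 7KC replicate 2. The ratio of Dcn to Lum ranged from 9.10 in 7KC replicate 2 to 22.5 in control replicate 2. Bgn, which encodes biglycan, was at 79.6 and 77.6 FPKM in the controls and at 81.9 and 99.0 FPKM in the 7KC libraries, a log2 change of 0.19 without overlap. Vcan, which encodes the large proteoglycan versican, missed the filter at 0.118 and 0.122 FPKM in the controls and 0.456 and 0.308 FPKM in the 7KC group, about 25 and 21 reads against 76 and 52, and was not tested.

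Mmp14 was the most abundant protease and had the smallest p among them, while Adam8 had the larger ratio of group means, 2.37 against 1.89. Mmp14 (chr14:54431612-54445364, plus strand), the membrane-anchored metalloproteinase that cuts fibrillar collagen and activates pro-Mmp2, was at 19.1 and 15.1 FPKM in the controls and at 27.8 and 36.7 FPKM in the 7KC libraries. The group means were 17.1 ± 2.85 and 32.3 ± 6.32 FPKM (SD, n = 2), a log2 change of 0.89 with an SE of 0.19 (limma adjusted p = 0.104, 95% confidence interval 0.41 to 1.37). The groups did not overlap. Its substrate Mmp2, a gelatinase, was at 3.71 and 2.72 FPKM against 3.41 and 6.41 FPKM and overlapped between the groups.

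Adam8 (chr7:139978932-139992562, minus strand), a sheddase of leukocytes, was at 0.878 and 0.619 FPKM in the controls and at 1.40 and 2.16 FPKM in the 7KC libraries, about 44 and 25 reads against 55 and 87. The log2 change was 0.85 (SE 0.24, limma adjusted p = 0.174), and the groups did not overlap. Mmp19, a metalloproteinase that was the second most abundant protease here, was lower without overlap at 19.2 and 20.5 FPKM against 16.2 and 17.6 FPKM, a log2 change of -0.22. The remaining proteases were low. Mmp9, the gelatinase of neutrophils and macrophages, was between 0.340 and 0.905 FPKM, with the low value in control replicate 2. The collagenases Mmp8 and Mmp13 were below the filter, Mmp8 at 0.233 and 0.225 FPKM against 0.356 and 0.514 FPKM, and Mmp13 at 0.0294 to 0.306 FPKM with 1 to 13 reads per library.

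The TIMPs differed from each other. Timp1 (chrX:20870166-20874735, plus strand), the soluble inhibitor that is induced in inflamed and fibrotic liver, was at 3.53 and 1.82 FPKM in the controls and at 7.29 and 4.28 FPKM in the 7KC libraries. The log2 change was 1.0 (SE 0.35, limma adjusted p = 0.24), with about 41 and 17 reads in the controls and 68 and 40 in the 7KC group. Timp1 and Mmp9 were the tested genes of the set with their highest value in 7KC replicate 1. Timp3 (chr10:86300372-86349506, plus strand), the inhibitor that binds to the matrix, was more abundant at 10.1 and 11.6 FPKM against 8.35 and 12.5 FPKM. Its groups overlapped, and the log2 change of -0.08 (SE 0.21, limma adjusted p = 0.876) became 0.12 after rescaling to the same sum. Timp2 overlapped too, with 7KC libraries 2.17-fold apart at 4.97 and 10.8 FPKM around control values of 7.27 and 6.74 FPKM. The ratio of Mmp14 to Timp2, the inhibitor that takes part in pro-Mmp2 activation, was 2.63 and 2.24 in the controls and 5.59 and 3.40 in the 7KC libraries, without overlap. Mmp14 by itself was also without overlap, and the ratio of 5.59 came with the lowest Timp2 value, 4.97 FPKM. The ratio of Mmp14 to Timp1 was 5.42 and 8.32 against 3.81 and 8.59 and overlapped.

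The lysyl oxidases, which crosslink collagen and elastin, overlapped between the groups. Loxl2 (chr14:69609068-69695834, plus strand), the most abundant of them, was at 2.63 and 2.08 FPKM in the controls and at 2.38 and 3.60 FPKM in the 7KC libraries, a log2 change of 0.27 with an SE of 0.22 (limma adjusted p = 0.562). Lox was at 1.02 and 0.472 FPKM against 0.832 and 1.53 FPKM, and Loxl1 at 1.93 and 1.03 FPKM against 1.6 and 2.95 FPKM. All 3 genes had the same order of libraries, with control replicate 2 lowest, then 7KC replicate 1, then control replicate 1, and 7KC replicate 2 highest. The same order was found for Col3a1, Col5a1, Col5a2, Col6a3, Sparc and Mmp2.

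The cytoskeletal genes showed the smallest p-values of the set, in opposite directions. Vim (chr2:13573927-13582826, plus strand) encodes vimentin, the intermediate filament of mesenchymal cells and also of leukocytes, and was at 61.2 and 45.1 FPKM in the controls and at 111 and 138 FPKM in the 7KC libraries. The group means were 53.2 ± 11.4 and 124 ± 19.2 FPKM (SD, n = 2), a log2 change of 1.23 with an SE of 0.20 (limma adjusted p = 0.0635, 95% confidence interval 0.73 to 1.72). The groups did not overlap, with 111 FPKM in the lower 7KC library and 61.2 FPKM in the higher control library. Tagln (chr9:45929619-45936058, minus strand) encodes transgelin, an actin-binding protein of smooth muscle and of contractile myofibroblasts, and was at 14.2 and 17.2 FPKM in the controls and at 9.55 and 8.80 FPKM in the 7KC libraries. It was lower by 0.74 on the log2 scale (SE 0.14, limma adjusted p = 0.0857, 95% confidence interval -1.09 to -0.39), and by 0.54 after rescaling to the same sum. Exons of Tagln overlap those of Pcsk7 on the opposite strand. The same holds, with other partners, for Col5a1, Col4a1, Col4a2, Col15a1, Fn1, Thbs1, Fbn1, Eln, Mmp19, Adam8, Timp3, Lox and Loxl2, 14 genes in all. The strand setting of the authors' counting was not given in the sources used here. In limma with the libraries rescaled to the same sum, Vim had a log2 change of 1.43 and an adjusted p of 0.0341.

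**Figure D3:**
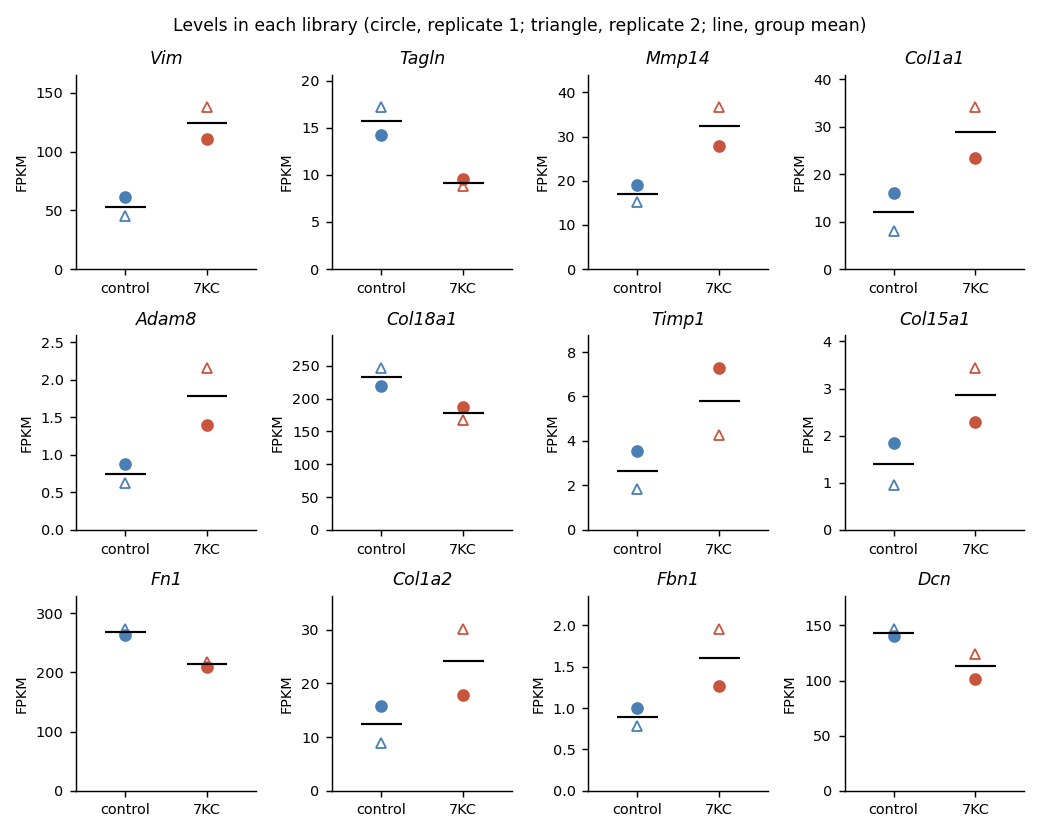
FPKM in each library (circle, replicate 1; triangle, replicate 2) with the group mean (line) for the 12 tested matrix genes with the smallest unadjusted p, each panel on its own axis from 0. Vim, Mmp14, Col1a1, Adam8, Timp1, Col15a1, Col1a2 and Fbn1 are higher in both 7KC libraries, and Tagln, Col18a1, Fn1 and Dcn are lower in both.

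Promoter sequences were examined because 8 genes of different roles were higher at an unadjusted p under 0.05. RefSeq windows of 300 bases (build GRCm38.p6, 250 bases before to 50 after the annotated start) were at hand for 25 of the 41 genes, in 28 windows, and for 7 of these 8. Motifs were searched on both strands, and the shares are over 32851 windows of the same length. The CCAAT box (CCAAT) was in 14 of 28 windows, against 37.4% of all windows, and the GC box (GGGCGG) was in 16, 57.1% against 35.7%. TATAAA was in 6 (21.4% against 13.6%) and the AP-1 motif (TGANTCA) in 2 (7.14% against 7.81%), those of Mmp13 and Col6a1. The NF-kB motif (GGANTTTCC), held by 1.25% of all windows, and the STAT motif (TTCNNNGAA), held by 8.30%, were in none of the 28. These matches are letters in a window and show no binding. A CCAAT box was also in windows of Postn, Col4a1, Col4a2, Mmp8, Col5a3, Col18a1, Timp2, Vcan and Thbs2, which were not among the 8 higher genes. Of the 7 higher genes with a window, 5 held a CCAAT box, and Col15a1 and Fbn1 held none. These 5 windows are printed 5′ to 3′ on the strand of the gene, with each CCAAT box, read on either strand, in capitals.
Vim (chr2:13574061-13574360, plus strand): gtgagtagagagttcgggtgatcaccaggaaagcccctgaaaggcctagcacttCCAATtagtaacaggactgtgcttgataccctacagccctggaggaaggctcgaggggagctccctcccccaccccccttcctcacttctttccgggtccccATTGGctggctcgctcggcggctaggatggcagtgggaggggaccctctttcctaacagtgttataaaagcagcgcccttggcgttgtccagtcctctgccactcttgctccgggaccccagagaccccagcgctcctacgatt
Mmp14 (chr14:54431348-54431647, plus strand): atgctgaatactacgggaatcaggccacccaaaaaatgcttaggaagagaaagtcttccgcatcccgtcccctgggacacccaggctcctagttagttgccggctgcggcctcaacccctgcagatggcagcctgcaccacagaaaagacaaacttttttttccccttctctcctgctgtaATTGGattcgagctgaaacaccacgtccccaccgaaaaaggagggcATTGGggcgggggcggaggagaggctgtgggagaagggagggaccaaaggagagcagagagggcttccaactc
Adam8 (chr7:139992513-139992812, minus strand): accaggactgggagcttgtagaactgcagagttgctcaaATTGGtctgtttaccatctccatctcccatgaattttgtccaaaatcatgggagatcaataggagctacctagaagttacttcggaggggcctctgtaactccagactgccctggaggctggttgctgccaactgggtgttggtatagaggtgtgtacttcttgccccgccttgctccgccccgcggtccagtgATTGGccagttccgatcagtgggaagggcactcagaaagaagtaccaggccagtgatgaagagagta
Timp1 (chrX:20869916-20870215, plus strand): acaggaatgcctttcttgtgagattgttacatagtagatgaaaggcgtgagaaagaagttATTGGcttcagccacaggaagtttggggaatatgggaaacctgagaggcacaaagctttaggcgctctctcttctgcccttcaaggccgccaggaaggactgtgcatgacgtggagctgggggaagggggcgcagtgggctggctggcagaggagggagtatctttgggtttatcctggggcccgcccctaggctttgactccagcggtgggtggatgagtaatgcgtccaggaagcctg
Col1a2 (chr6:4505368-4505667, plus strand): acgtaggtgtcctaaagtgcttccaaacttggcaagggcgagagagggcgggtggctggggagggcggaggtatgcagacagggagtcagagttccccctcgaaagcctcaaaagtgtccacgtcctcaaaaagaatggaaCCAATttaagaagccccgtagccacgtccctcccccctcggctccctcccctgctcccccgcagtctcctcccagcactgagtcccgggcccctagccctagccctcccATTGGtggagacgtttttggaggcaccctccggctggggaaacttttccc

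The windows of Vim, Mmp14, Adam8 and Col1a2 each held 2 CCAAT boxes and that of Timp1 held 1. Vim also carried TATAAA close upstream of its start, and the other 4 did not, while these 4 held a GC box and Vim did not. Of the 3 genes lower at an unadjusted p under 0.05, Col18a1 had windows at 2 annotated starts 52825 bases apart, and the upstream window held a CCAAT box.

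Replicates of a group differed more for the median matrix gene than for the median gene of the liver. The median absolute difference between the control replicates was 0.28 on the log2(FPKM + 0.5) scale for the 37 tested genes and 0.16 for all tested genes. Between the 7KC replicates it was 0.55 for the set and 0.17 for all genes, and 0.62 for the 14 tested collagens. The differences had a shared direction within each group. Control replicate 1 was above control replicate 2 for 27 of 37 genes (73.0%), against 53.9% of all tested genes, and 7KC replicate 2 was above 7KC replicate 1 for 32 of 37 (86.5%), against 47.7%. The largest gaps over both groups were those of Lum, Col3a1, Col1a2, Timp1 and Col1a1. Fn1, Mmp19, Col18a1, Tagln, Bgn and Col5a3 had small gaps, at most 1.21-fold within a group.

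Ranked over the 4 libraries, 7KC replicate 2 held the highest value for 28 of 37 genes (75.7%), against 29.0% of all tested genes. The highest value was in 7KC replicate 1 for 2 genes (16.5% of all tested genes), in control replicate 2 for 6 (28.4%) and in control replicate 1 for Col5a3 (26.1%). Control replicate 2 was lowest for 21 genes (56.8%), against 29.3% of all tested genes. 7KC replicate 1 was lowest for 12 genes, among them Lum, Dcn, Timp2, Timp3 and Postn, against 18.0% of all tested genes. 7KC replicate 2 was lowest for Col5a3, Col18a1 and Tagln, against 34.1%, and control replicate 1 for Eln, against 18.7%. Without 7KC replicate 2, 12 genes of the set (32.4%) were higher without overlap, against 33.7% of all tested genes, and 14 (37.8%) were lower, against 37.5%. Without 7KC replicate 1, 29 (78.4%) were higher, against 36.9%, and 7 (18.9%) were lower, against 41.9%.

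Of 18 tested genes with full values, 12 had a log2 change that moved by over 1.5 times or turned in sign when 1 library was left out. Without 7KC replicate 2 the change was 0.57 for Col1a2, 0.27 for Col3a1, 0.36 for Fbn1, 0.02 for Loxl2 and -0.50 for Col14a1. Without 7KC replicate 1 it was 1.18 for Col3a1, 0.64 for Timp1, 0.53 for Loxl2, -0.10 for Col14a1 and -0.21 for Dcn. Without control replicate 2 it was 0.81 for Col1a1, 0.55 for Col1a2, 0.38 for Col3a1, 0.5 for Col15a1, 0.60 for Timp1 and 0.13 for Loxl2. Without control replicate 1 it was 0.41 for Loxl2. Col6a1, Lum and Timp3 turned in sign. Vim, Mmp14, Adam8, Tagln, Col18a1 and Fn1 did not move this far without any 1 of the 4 libraries.

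**Figure D4:**
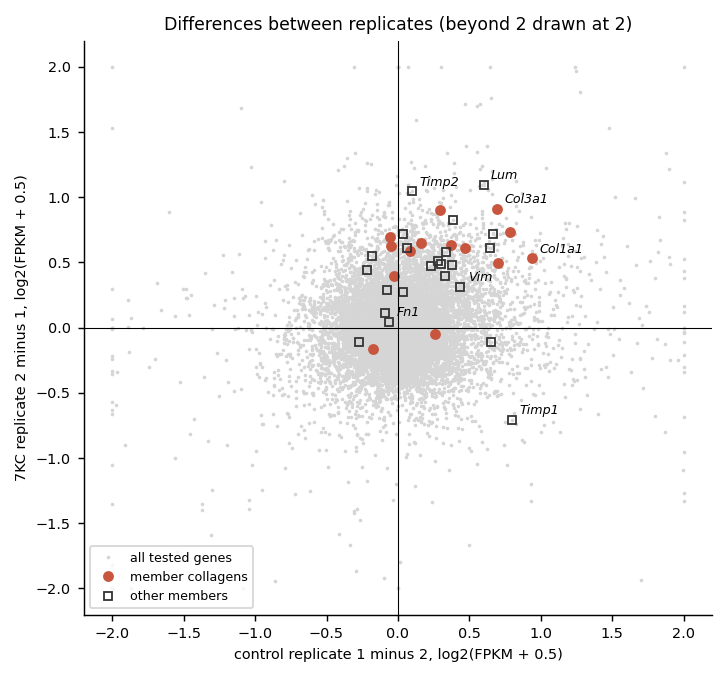
Difference between the replicates of each group on the log2(FPKM + 0.5) scale, control replicate 1 minus 2 on the horizontal axis and 7KC replicate 2 minus 1 on the vertical axis, for all 12299 tested genes (gray), the 14 tested collagens of the set (red circles) and its other 23 genes (open squares). The matrix genes gather in the upper right, where 24 of 37 are above 0 on both axes, and Timp1 lies in the lower right.

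Markers of leukocytes were read beside the set, since bulk liver holds many cell types. Of 13 markers of monocytes and recruited macrophages, 13 had positive log2 changes with a median of 1.23, and their summed FPKM was 509 to 746 in the controls and 1340 to 2100 in the 7KC libraries. The most abundant were Lyz2, at 538 and 321 FPKM against 995 and 1580 FPKM, and Mpeg1. Control replicate 2 was the lowest and 7KC replicate 2 the highest library in this sum, as for many matrix genes. T and NK cell markers summed to 15.2 to 21.4 FPKM against 45.3 to 55.3 FPKM. Neutrophil markers summed to 288 to 441 FPKM against 606 to 1020 FPKM. Most of this was Lcn2, also made by hepatocytes, at 405 and 267 FPKM against 566 and 979 FPKM. S100a9 and Csf3r were also higher in both 7KC libraries. The neutrophil genes Ngp, Ltf, Camp and Elane, at 1.05 FPKM or less, were lower in both. Kupffer cell markers summed to 306 to 308 FPKM against 352 to 525 FPKM, with a median log2 change of 0.02. Vim, Adam8, Timp1 and Mmp14 are also expressed by myeloid cells. The part of these cells in the higher values of the set was not tested.

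Markers of hepatic stellate cells were no higher in sum in the 7KC libraries. Of 12 hepatic stellate cell markers, 5 were positive and 7 negative with a median log2 change of -0.13, and their summed FPKM was 147 and 156 in the controls and 112 and 124 in the 7KC libraries. None of the 12 was listed at 0. Most of the sum came from Ecm1, at 65.1 and 74.1 FPKM against 45.7 and 46.8 FPKM, and Colec11, at 33.4 and 32.5 FPKM against 25.9 and 29.2 FPKM. Without overlap, 5 of the 12 were lower, against 27.4% of all tested genes, and 2 were higher, against 25.1%. The contractile genes Acta2 and Myl9, markers of smooth muscle and of activated stellate cells, were lower without overlap, as Tagln was, and Acta2 was picked after its values were seen. Acta2 was at 4.35 and 4.63 FPKM against 3.56 and 3.75 FPKM, and Myl9 at 5.73 and 6.37 FPKM against 4.08 and 3.72 FPKM. Lmod1, below the filter, was also lower without overlap, while Myh11, Cnn1 and Actg2 overlapped. These genes are in the list of portal fibroblasts and smooth muscle, with 7 tested genes. Of these 7, 2 were lower without overlap, against 27.4% of all tested genes, and 1 was higher, against 25.1%. Thy1, a marker of portal fibroblasts and also of T cells, was at 3.69 and 3.16 FPKM against 7.29 and 8.56 FPKM. The list of portal fibroblasts and smooth muscle had a median log2 change of -0.15 and summed to 20.9 to 22.7 FPKM against 22.0 to 25.5 FPKM. Thy1 had the highest change of this list, 1.1, and leaving it out was not planned. Without Thy1 the list summed to 17.8 to 19.1 FPKM against 14.7 to 16.9 FPKM, lower in both 7KC libraries. Of its 6 tested genes other than Thy1, 2 were positive and 4 negative.

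The hepatocyte list was negative for 11 of 11 genes as deposited, where 6625 of all 12299 tested genes were negative. Its median log2 change was -0.48, with sums of 78000 to 92700 FPKM in the controls and 53600 to 69200 FPKM in the 7KC libraries. After rescaling to the same sum, Apob and Trf were no longer negative. Under quantile normalization, Apob, Trf and Alb were not. Fn1 and Col18a1, which hepatocytes express, were lower over the same libraries, and the part of hepatocyte RNA in this was not tested. Endothelial markers had a median of -0.04, with 179 to 215 FPKM against 174 to 255 FPKM. B cell markers summed to 2.26 to 7.03 FPKM against 6.47 to 6.63 FPKM. The cholangiocyte list summed to 64.8 to 95 FPKM against 173 to 373 FPKM, most of it Spp1, which macrophages also express. Erythroid markers summed to 71.3 to 113 FPKM against 60.7 to 76.7 FPKM, nearly all of it Hba-a1 and Alas2.

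**Figure D5:**
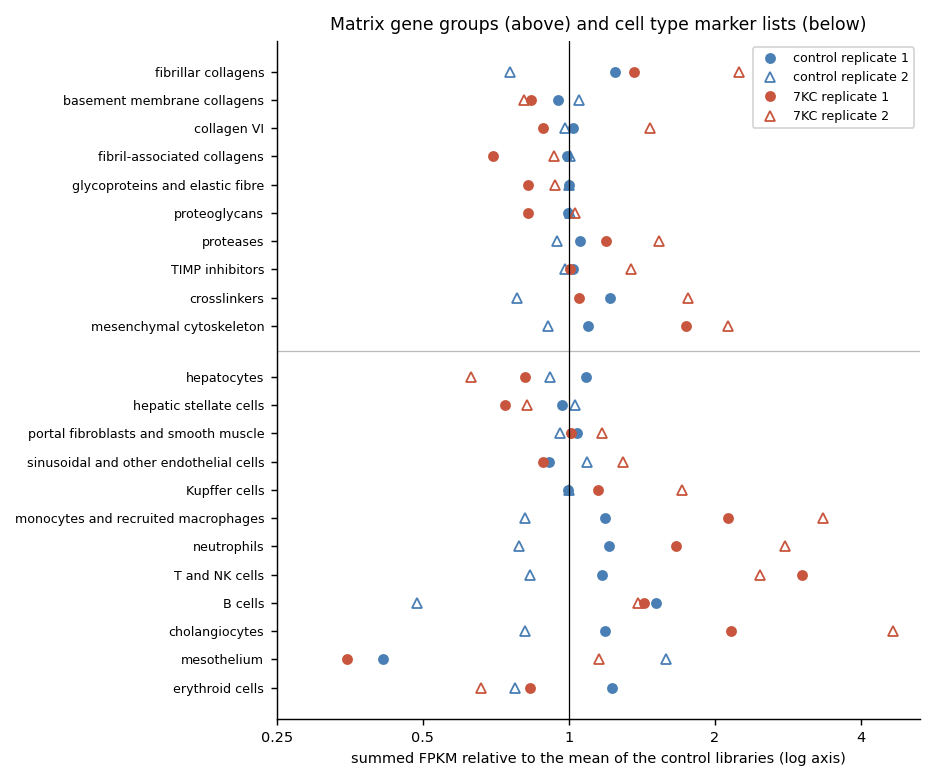
Summed FPKM of each matrix gene group (above the line) and of each cell type marker list (below it) in each library, divided by the mean of the control libraries, on a log axis (blue, control; red, 7KC; circle, replicate 1; triangle, replicate 2). Fibrillar collagens and the macrophage list share an order of libraries with control replicate 2 lowest and 7KC replicate 2 highest. The stellate cell list, most of it Ecm1 and Colec11, lies below 1 in both 7KC libraries.

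By role, the 10 sums went in both directions. Among single tested genes, 25.1% were higher and 27.4% were lower without overlap. Fibrillar collagens, proteases (44.3 and 39.6 FPKM against 50.1 and 64.4 FPKM) and cytoskeletal genes (75.4 and 62.3 FPKM against 120 and 147 FPKM) were higher in both 7KC libraries than in both control libraries. The last of these sums was led by Vim, and Tagln, the other cytoskeletal gene, was lower in both. The protease sum was led by Mmp14, and Mmp19, the second most abundant protease, was lower in both. Basement membrane collagens (241 and 266 FPKM against 212 and 205 FPKM), glycoproteins (327 and 327 FPKM against 269 and 306 FPKM) and fibril-associated collagens (14.4 and 14.6 FPKM against 10.1 and 13.5 FPKM) were lower in both, and each of these sums was led by 1 abundant gene, Col18a1, Fn1 and Col14a1. Proteoglycans, TIMPs, collagen VI and crosslinkers overlapped. Over all 41 genes the sum was 1040 and 1020 FPKM in the controls and 965 and 1150 FPKM in the 7KC libraries. Leaving out Fn1, Col18a1 and Dcn, it was 419 and 350 FPKM against 465 and 645 FPKM. These are the most abundant genes of the set and each was lower in both 7KC libraries, so leaving them out favours a higher 7KC sum. This step was not planned.

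Other genes of the matrix, 150 in 8 lists, were read from the same fit to place the set. Of the 102 that were tested, 20 (19.6%) were higher and 8 (7.84%) were lower at an unadjusted p under 0.05 in limma, against 12% and 5.81% of all tested genes, none passed the adjusted threshold, and the median log2 change was 0.11. The list of other proteases and of the plasminogen system held 7 of the 20 higher genes, among 18 tested. Plau, the urokinase that turns plasminogen into plasmin, was at 1.58 and 1.25 FPKM in the controls and at 3.23 and 3.65 FPKM in the 7KC libraries. Ctss, a lysosomal elastase of macrophages, was at 162 and 135 FPKM against 293 and 459 FPKM. Plg, the plasminogen gene of hepatocytes and the 1 lower gene of this list, was at 1180 and 1330 FPKM against 956 and 887 FPKM. Among 6 tested inhibitors, Serpinf1 had a log2 change of -0.46.

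Of 17 tested enzymes and chaperones of collagen maturation, 12 had positive changes with a median of 0.09. Among them Tgm2, a transglutaminase that crosslinks matrix proteins, was higher with a log2 change of 0.78 (limma adjusted p = 0.0621) and Bmp1, which cuts the C-terminal propeptide of fibrillar collagen, was lower with -0.59 (limma adjusted p = 0.121). Serpinh1, the collagen chaperone that was singled out after its values were seen, was at 18.6 and 14.9 FPKM against 15.3 and 18.2 FPKM. Laminins, nidogens and other basement membrane genes had no gene of 10 at an unadjusted p under 0.05 and a median log2 change of 0.15. Among 19 glycoprotein and elastic fibre genes, Mgp, an inhibitor of calcification, was at 11.1 and 11.4 FPKM against 19.0 and 18.7 FPKM, and Ecm1 was lower at 65.1 and 74.1 FPKM against 45.7 and 46.8 FPKM. Among 13 proteoglycans, Srgn, the granule proteoglycan of leukocytes, was at 28.6 and 22.5 FPKM against 53.0 and 65.0 FPKM, and Sdc3 had a log2 change of 0.89. Of 16 matrix receptors, 4 were higher, led by Lair1, an inhibitory collagen receptor of leukocytes, with 1.51, and Cd44, a hyaluronan receptor, with 0.93. The 3 tested collagens outside the set had a median of -0.17, and none had an unadjusted p under 0.05.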

How the data were processed

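Deposited tables of 4 mouse liver libraries were used, with groups and replicate numbers from the labels. The authors made stranded libraries of messenger RNA, sequenced single-end reads on a HiSeq and mapped them to mm10. The submitters' processing notes name TopHat2 2.1.1, Bowtie2 2.2.8, SAMtools 0.1.18 and Cuffdiff 2.2.1. The authors deposited FPKM, with each symbol listed once in each library. The annotation and the settings for strand and multi-mapped reads are not given in the sources used here.

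FPKM is not a count and depends on the total of its library, so abundant genes shift all others. Values were tested as log2(FPKM + 0.5) with limma 3.58.1 in R 4.3.3 (trended prior, group as the only term, 2 residual and 3.27 prior degrees of freedom) over 12299 genes that averaged 0.5 FPKM or more. P-values were adjusted over all of them by the Benjamini-Hochberg method. For 1 gene alone the smallest 2-sided exact permutation p was 0.333. The procedure was checked on simulated data. For limma these had independent noise in each gene and library, so differences that many genes of a library share were not covered. Depth was estimated from low values of genes with 1 transcript, of which 72.4% to 75.0% came out whole with a tolerance of 0.1 reads, where 20% would by chance. The filter of 0.5 FPKM corresponded to 11.7 to 14.6 reads at the median length. Read numbers of single genes use the longest coding transcript. Coordinates are from the GENCODE annotation of GRCm38, the build of mm10.

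The members and all gene lists were chosen with earlier results of these data known. Full values are given for the 12 tested members with the smallest p, the most abundant member of each of 10 roles and the 5 with the largest replicate gaps, and from each other list up to 2 genes are named, those with the smallest p or, for cell markers, the most abundant. A gene that this rule also names is not reported here. Alternatives covered the pseudocount, the filter, the scaling, the prior, each library left out and a replicate block.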

Additional observations from a re-analysis of the deposited data

How the results depend on the processing

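With 2 libraries per group, calls rest on the variance shared between genes and shift with most settings. Counts that changed by over 1.5 times are given here, with those as reported first, and the cause was not tested. All tested genes at a limma adjusted p under 0.05 were 59 higher and 3 lower. The higher count was 111 with a pseudocount of 1, 0 without a filter, 39 without a trend in the prior, 398 after rescaling to the same sum, 94 with median-ratio scaling and 2 to 389 without 1 library. The lower count was 1 without a filter, 1 without a trend, 7 after rescaling to the same sum and 1 to 52 without 1 library. Matrix genes at this threshold were 0 higher and 0 lower. After rescaling to the same sum 1 was higher (Vim), and without 1 library 0 to 2 were (Vim, adjusted p 0.032, and Col1a1, without control replicate 1).

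Matrix genes at an unadjusted p under 0.05 were 8 higher and 3 lower. The higher count was 4 at a mean of at least 5 FPKM, 5 under quantile normalization, and 3 to 15 without 1 library. The lower count was 1 after rescaling to the same sum, 1 under quantile normalization, and 1 to 5 without 1 library. Without overlap, 11 were higher and 6 lower: 7 were higher at a mean of at least 5 FPKM, 17 after rescaling to the same sum and 12 to 29 without 1 library, and 2 were lower after rescaling and 6 to 14 without 1 library. Of the 150 companion genes, 20 were higher, and 11 at a mean of at least 5 FPKM. The 8 lower ones were 5 without a filter, 3 after rescaling to the same sum and 4 to 8 without 1 library.

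The median log2 change of the matrix genes, 0.33, stayed positive under every alternative run, from 0.05 without 7KC replicate 2 to 0.64 without 7KC replicate 1. Their median replicate gap of 0.38 was between 0.36 and 0.45 where it was recomputed under a filter or a scaling, and it was not computed without a library or with a block. Of 247 alternative values of 18 named genes, 237 kept their direction and side of the threshold. The log2 change turned negative for Col6a1 (-0.04 under quantile normalization, -0.30 without 7KC replicate 2) and Lum (-0.39 without 7KC replicate 2, -0.14 without control replicate 2). It turned positive for Timp3 (0.12 after rescaling to the same sum, 0.20 without 7KC replicate 1, 0.01 without control replicate 2). The leave-one-out values ranged from -0.30 to 0.39 for Col6a1, -0.39 to 0.71 for Lum and -0.35 to 0.20 for Timp3.

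The labels do not say whether the replicate numbers pair the samples. The differences of replicates 1 and 2 correlated at -0.141 between the groups over 12299 genes, which cannot show whether samples were paired. With a replicate block 0 genes were higher and 0 lower over all genes, and 5 matrix genes were higher at an unadjusted p under 0.05. A crossed pairing, added after seeing the data, gave 551 higher and 37 lower genes over all genes, 4 and 1 matrix genes, and 15 matrix genes higher at an unadjusted p under 0.05.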

Other observations

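Markers of mesothelium, the cell layer on the liver surface, stood apart by replicate number and not by diet, and were picked out after their values were seen. Msln was at 0.0609 and 0.793 FPKM in the controls and at 0.0381 and 0.681 FPKM in the 7KC libraries. Upk3b was listed at 0 and was at 0.71 FPKM in the control libraries, and was at 0.0397 and 0.355 FPKM in the 7KC libraries. The 5 markers summed to 0.812 and 3.11 FPKM in the control group and to 0.683 and 2.26 FPKM in the 7KC group. None of them reached the filter for a test. Mesothelial cells also express matrix genes, and their part in the replicate differences of the set was not tested.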
